A study of Rattus norvegicus with 6 samples.

Results

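Cdkn1a and 9 other established targets of the tumour suppressor p53 were followed in rat liver 14 days after a liver trauma: Ccng1, Btg2, Gadd45a, Gadd45b, Mdm2, Sesn1, Trp53inp1, Phlda3 and Bax. The genes were selected on their known regulation by p53, and with the difference between the dressings in these same libraries already known, so their values in that comparison are given as a description and without a test. Of the 10, 9 stood in the deposited tables of 20104 genes under the given symbol, and Trp53inp1 was found under its other symbol, Tp53inp1, through its gene identifier. All 10 passed the filter on low counts, as did 13872 genes in all.

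The wound had been covered with AKOC in 3 libraries and with Quik-clot, a commercial haemostatic dressing that served as the control, in the other 3. AKOC is not spelled out in the labels, and the series concerns kaolin scales anchored on cotton. All samples were whole liver, and strain, sex, age and hour of collection are not stated in the labels. No library came from uninjured liver, and the labels do not say whether the libraries of a dressing came from separate rats, so any spread between them may be technical. Total counts lay between 40402312 and 41455378 per library, so depth differed little. The hepatocyte markers were abundant in every library (7 of 7 measured, summed level 106492 to 164616 after Quik-clot and 122364 to 180781 after AKOC, in CPM, counts scaled to 1000000 per library).

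The p53 protein is a transcription factor that is held at a low level by the ubiquitin ligase MDM2 and accumulates when DNA is damaged or the cell is otherwise stressed. It binds a pair of adjoining decamers in or near its target genes. Its targets halt the cell cycle, repair DNA, adjust metabolism or promote cell death, and some of them, such as Gadd45b and Btg2, are also induced by cytokines, glucocorticoids or growth signals without p53. In liver, Cdkn1a restrains hepatocyte division after injury and resection.

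The windows at the start sites of the genes are shown first, because those of Cdkn1a and Ccng1 hold a sequence that the other 6 windows found do not. RefSeq promoter windows (assembly GRCr8, 250 bases before to 50 after the annotated start, 300 in all) were found for 8 of the 10 members, all but Bax and Trp53inp1. The sequences are of another assembly than the counts and serve only as reference. Capitals mark matches, on either strand, to the p53 consensus decamer, to a pair of adjoining decamers with at most 1 letter off the consensus, to the GC box GGGCGG and to the E-box CACGTG, and overlapping matches run together. The windows are those of Cdkn1a (chr20:7150682-7150981, plus strand), Ccng1 (chr10:25684827-25685126, minus strand), Phlda3 (chr13:49744753-49745052, plus strand) and Gadd45b (chr7:9430669-9430968, minus strand).
Cdkn1a: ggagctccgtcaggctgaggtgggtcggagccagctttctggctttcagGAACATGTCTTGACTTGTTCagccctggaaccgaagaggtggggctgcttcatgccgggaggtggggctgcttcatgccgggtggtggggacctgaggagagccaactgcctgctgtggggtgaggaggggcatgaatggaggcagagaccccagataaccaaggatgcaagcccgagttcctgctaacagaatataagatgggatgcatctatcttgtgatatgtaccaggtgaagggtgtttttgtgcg
Ccng1: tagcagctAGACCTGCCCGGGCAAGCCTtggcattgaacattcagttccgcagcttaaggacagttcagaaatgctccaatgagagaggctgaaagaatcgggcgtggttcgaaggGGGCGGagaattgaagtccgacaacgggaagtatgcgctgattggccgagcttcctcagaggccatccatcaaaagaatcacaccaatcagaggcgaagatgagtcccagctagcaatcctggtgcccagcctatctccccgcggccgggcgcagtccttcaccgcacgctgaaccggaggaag
Phlda3: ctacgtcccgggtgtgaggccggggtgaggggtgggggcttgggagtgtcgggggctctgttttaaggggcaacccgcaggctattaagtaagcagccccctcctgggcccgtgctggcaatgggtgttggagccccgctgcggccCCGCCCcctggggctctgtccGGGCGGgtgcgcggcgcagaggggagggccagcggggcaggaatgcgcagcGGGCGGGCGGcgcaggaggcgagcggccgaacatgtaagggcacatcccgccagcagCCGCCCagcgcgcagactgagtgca
Gadd45b: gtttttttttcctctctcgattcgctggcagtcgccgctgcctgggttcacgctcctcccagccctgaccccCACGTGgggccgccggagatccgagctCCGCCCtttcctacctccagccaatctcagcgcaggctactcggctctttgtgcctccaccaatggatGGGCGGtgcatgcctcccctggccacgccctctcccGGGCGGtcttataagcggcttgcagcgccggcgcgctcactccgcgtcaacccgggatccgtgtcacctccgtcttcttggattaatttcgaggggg

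The pair of adjoining decamers, a search added after the windows had been seen, was present in 24 of 33469 promoter windows of the rat table (0.0717%). Cdkn1a and Ccng1 were among the 24, each with 1 letter off the consensus. In Cdkn1a the pair GAACATGTCTTGACTTGTTC spanned bases -201 to -182 from the annotated start. In Ccng1 the pair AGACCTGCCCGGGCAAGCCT spanned bases -242 to -223. The other genes with such a window were Gtse1, a regulator of p53 in dividing cells, Rnps1, an RNA-binding protein, and genes that were mostly below the filter, with 5 of the 24 windows belonging to a gene tested here. A single exact decamer was present in 4 of the 8 member windows (Cdkn1a, Ccng1, Gadd45a with GGGCTAGCCC at -48 to -39, and Sesn1 with AAGCTTGTTT at -172 to -163) and in 7.98% of all windows. The windows of Phlda3, Gadd45b, Btg2 and Mdm2 held none, which concerns these 300 bases only. The GC box was found in 7 of the 8 windows, all but that of Cdkn1a, and in 33.1% of all windows. Its absence from the Cdkn1a window, too, concerns these 300 bases at the annotated start used here, and no other start of the gene. The E-box was found in the Gadd45b window alone and in 6.42% of all windows. These are matches of letters and not shown binding sites.

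Cdkn1a, which encodes the cyclin-dependent kinase inhibitor p21, differed most between the dressings in this group. Its level was 3.09, 1.28 and 7.67 CPM in Quik-clot replicates 1, 2 and 3 and 34.9, 8.57 and 16.3 CPM in AKOC replicates 1, 2 and 3, the order used for every gene, from 56 counts in the lowest library to 1556 in the highest. The dressings did not overlap, although the lowest AKOC library lay close to the highest Quik-clot library. The AKOC mean was 19.9 ± 13.6 CPM and the Quik-clot mean 4.02 ± 3.29 CPM (SD, n = 3 each, as for all means here), a fitted 4.98-fold difference with a log2 fold change of 2.32 ± 0.72 (SE, AKOC over Quik-clot). AKOC replicate 1 stood 2.14 times above the next library. The log2 fold change was 1.63 when AKOC replicate 1 was left out and 3.18 when Quik-clot replicate 3 was, so either library moved the fold by more than 1.5 times.

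Ccng1 encodes cyclin G1, which with a phosphatase subunit acts on MDM2. It measured 29.7, 40.3 and 35.4 CPM in the Quik-clot libraries and 58.3, 32.6 and 37.2 CPM in the AKOC libraries. A single library, AKOC replicate 1, stood above the rest and the other AKOC libraries lay inside the Quik-clot range. The log2 fold change of 0.28 ± 0.23 became -0.01 without AKOC replicate 1.

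Btg2, an antiproliferative gene that helps remove mRNA poly(A) tails, had the opposite outlying library. It measured 18.5, 15.9 and 68.1 CPM in the Quik-clot libraries and 22.7, 28.7 and 11.6 CPM in the AKOC libraries. Quik-clot replicate 3 was 2.37 times above the next library and the dressings overlapped. The log2 fold change of -0.70 ± 0.59 turned to 0.29 when Quik-clot replicate 3 was left out.

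Gadd45a and Gadd45b encode small nuclear proteins that bind PCNA, p21 and stress kinase activators. Gadd45a measured 12.9, 14.3 and 33.6 CPM in the Quik-clot libraries and 13.6, 7.74 and 7.64 CPM in the AKOC libraries. AKOC replicate 1 lay within the Quik-clot range and Quik-clot replicate 3 was the highest library, with a log2 fold change of -1.07 ± 0.41, or -0.49 without Quik-clot replicate 3. Gadd45b measured 4.53, 5.18 and 11.1 CPM in the Quik-clot libraries and 2.94, 2.64 and 1.88 CPM in the AKOC libraries. All 3 AKOC libraries lay below all 3 Quik-clot libraries, with means of 2.49 ± 0.549 and 6.94 ± 3.62 CPM. The log2 fold change of Gadd45b was -1.48 ± 0.38, and -0.96 without Quik-clot replicate 3.

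**Figure D1:**
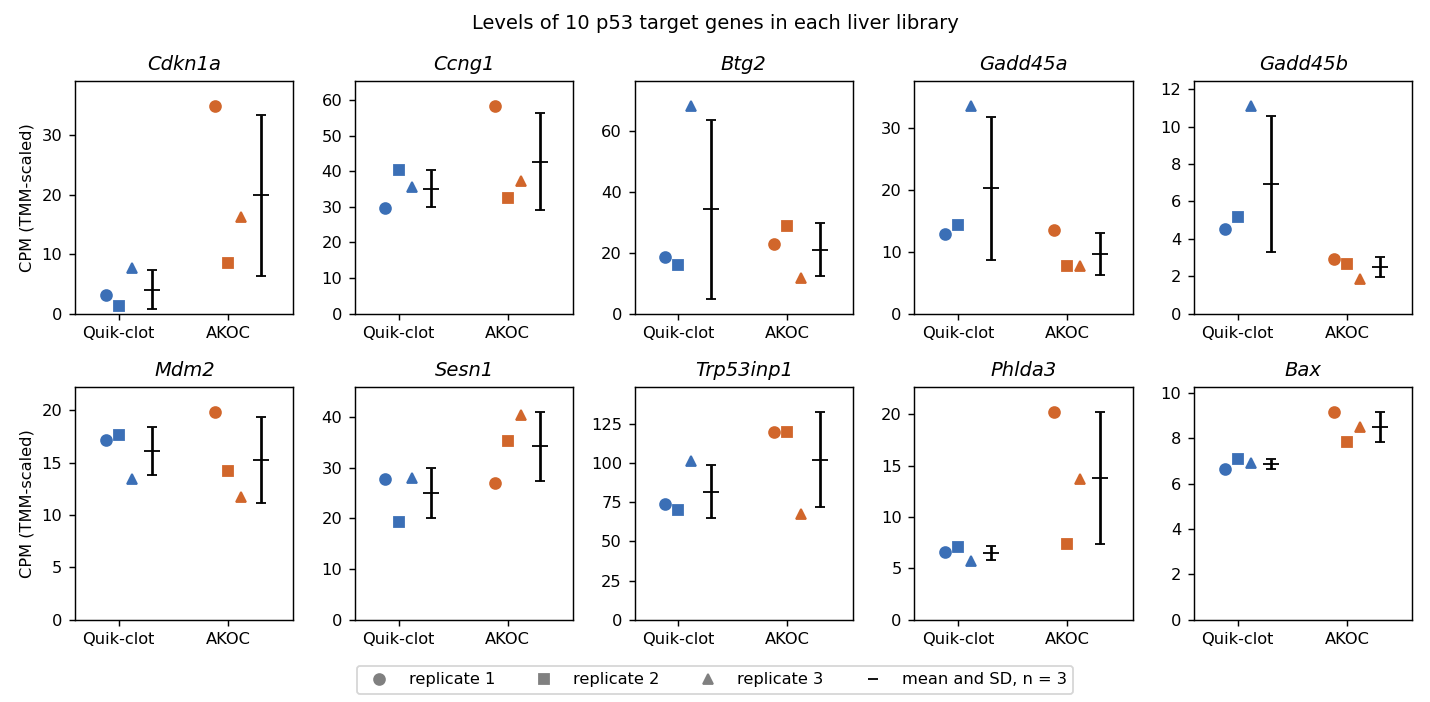
Level of each of the 10 p53 target genes in CPM after TMM scaling (vertical axes from 0), by dressing, with 1 point per library, a marker shape per replicate number, and the mean with SD (n = 3) in black. AKOC replicate 1 is the highest point for Cdkn1a at 34.9 CPM and for Phlda3 at 20.2 CPM, and Quik-clot replicate 3 is the highest for Btg2 at 68.1 CPM.

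Mdm2 encodes the ligase that degrades p53 and is itself induced by p53. It measured 17.2, 17.7 and 13.5 CPM in the Quik-clot libraries and 19.8, 14.2 and 11.8 CPM in the AKOC libraries, and the dressings overlapped. The highest and the lowest library were both AKOC libraries. Its log2 fold change of -0.08 ± 0.21 was smaller than its standard error and turned to 0.08 without AKOC replicate 3.

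Sesn1 and Trp53inp1 belong to the metabolic and redox arm of the pathway. Sesn1, a stress protein that inhibits mTORC1 signalling, measured 27.7, 19.3 and 27.9 CPM in the Quik-clot libraries and 27.0, 35.3 and 40.4 CPM in the AKOC libraries. Here AKOC replicate 1 was the lowest AKOC library and lay inside the Quik-clot range, unlike for Cdkn1a. The log2 fold change of Sesn1 was 0.45 ± 0.20. Trp53inp1, which promotes autophagy and p53 phosphorylation, measured 73.9, 70.0 and 101 CPM in the Quik-clot libraries and 120, 120 and 67.2 CPM in the AKOC libraries. AKOC replicate 3 was the lowest of the 6 libraries, so the groups overlapped, with a log2 fold change of 0.32 ± 0.25.

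Phlda3 and Bax act on survival. Phlda3, which keeps the kinase AKT from the membrane, measured 6.62, 7.11 and 5.75 CPM in the Quik-clot libraries and 20.2, 7.42 and 13.7 CPM in the AKOC libraries. The Quik-clot libraries were close together, AKOC replicate 2 stood just above them, and AKOC replicates 1 and 3 were clearly higher. The means were 13.8 ± 6.40 and 6.49 ± 0.684 CPM, with a log2 fold change of 1.09 ± 0.33, which was 0.70 without AKOC replicate 1. Bax, which permeabilises the outer mitochondrial membrane, measured 6.64, 7.08 and 6.92 CPM in the Quik-clot libraries and 9.16, 7.82 and 8.50 CPM in the AKOC libraries. Its difference was small but the spread was small too, with a log2 fold change of 0.30 ± 0.13 and no overlap.

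**Figure D2:**
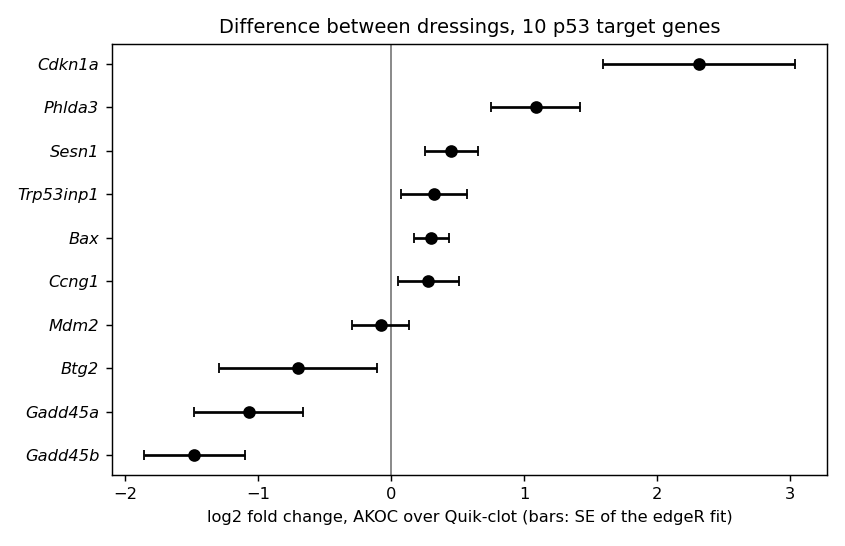
Log2 fold change, AKOC over Quik-clot, of the 10 p53 target genes (horizontal axis), with bars for the standard error of the edgeR fit. Cdkn1a at 2.32 and Phlda3 at 1.09 lie farthest to the right, and Gadd45b at -1.48 and Gadd45a at -1.07 farthest to the left.

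Across the 10 genes, 3 (Cdkn1a, Phlda3 and Bax) had every AKOC library above every Quik-clot library in CPM, against 9.53% of all genes tested. A single gene, Gadd45b, had every AKOC library below, against 8.84% of all genes. As the genes were chosen with this comparison known, nothing is read from these shares. The choice of scale mattered for Phlda3 and Bax: in FPKM (fragments per kilobase of transcript and per 1000000 counted), which scales by library total alone, AKOC replicate 2 lay among the Quik-clot libraries for Phlda3 (4.71 against 5.20, 5.33 and 3.65 FPKM) and for Bax (8.49 against 8.94, 9.10 and 7.50 FPKM). Cdkn1a and Gadd45b did not overlap on either scale. The median log2 fold change of the 10 genes was 0.29, against -0.01 over all genes tested.

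The members showed different library patterns rather than a common one. AKOC replicate 1 held the highest value of 6 members (Cdkn1a, Ccng1, Mdm2, Trp53inp1, Phlda3 and Bax) in CPM, and of 6 in FPKM, where 14.0% of all genes tested had their highest value in that library. For Trp53inp1 it was level with AKOC replicate 2. Only Cdkn1a was at least 1.5-fold above the next library there, which 1.36% of all genes were. Quik-clot replicate 3 held the highest value of Btg2, Gadd45a and Gadd45b, against 20% of all genes, and all 3 were at least 1.5-fold above the next library, against 2% of all genes.

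**Figure D3:**
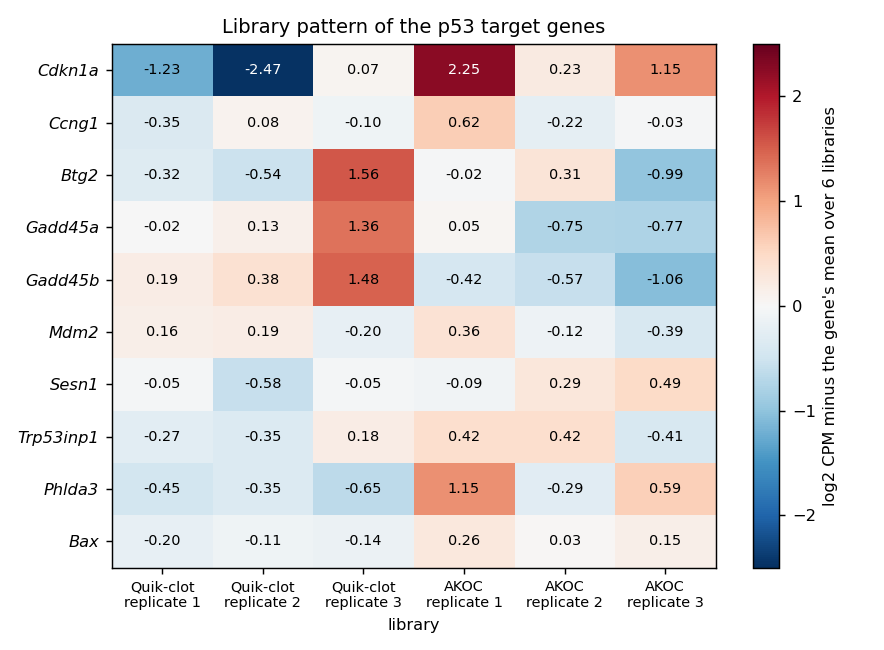
Log2 CPM of each p53 target gene minus its mean over the 6 libraries, with libraries as columns, genes as rows and the value printed in each cell. AKOC replicate 1 is at 2.25 for Cdkn1a and 1.15 for Phlda3, and Quik-clot replicate 3 is at 1.56, 1.36 and 1.48 for Btg2, Gadd45a and Gadd45b.

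Other gene groups moved with the library in which Btg2, Gadd45a and Gadd45b were highest. In Quik-clot replicate 3 stood the highest value of 13 of 15 acute phase genes, 9 of 13 tested immediate early genes, 6 of 10 glucocorticoid targets and 7 of 12 FOXO targets, lists that share some genes. As examples chosen after their values were seen, the acute phase gene Lcn2 was at 3167 CPM there and between 3.10 and 262 CPM elsewhere, and the immediate early gene Dusp1 at 113 CPM against 13.2 to 41.2 CPM. Summed neutrophil markers (4 genes) were at 103 CPM in that library and second highest, at 44.7 CPM, in AKOC replicate 1, where Cdkn1a was highest, against 6.83 to 29.3 CPM in the other 4 libraries, with Mpo at 0 in at least 1 library. The part of these groups in the values of the p53 targets was not tested.

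AKOC replicate 1 held the highest value of 0 acute phase genes, 1 immediate early gene, 1 glucocorticoid target and 0 FOXO targets in those 4 lists, against 14.0% of all genes. With so many highest values in Quik-clot replicate 3, fewer remained for any other library. In log2 CPM centred on each gene's mean, the immediate early genes had a median of 0.22 in AKOC replicate 1. Only Quik-clot replicate 3 was higher, at 0.83. The medians of the acute phase genes, glucocorticoid targets and FOXO targets in AKOC replicate 1 were -0.17, -0.09 and -0.13. Between the dressings, summed markers of T and NK cells (7 genes, 8.19 to 10.9 CPM after AKOC and 11.7 to 33.6 CPM after Quik-clot) and of endothelial cells (5 genes, 321 to 347 and 366 to 403 CPM) did not overlap. Among all genes tested, taken singly, 8.84% were lower after AKOC without overlap. Markers of macrophages (7 genes, 530 to 776 and 673 to 997 CPM), of stellate cells and fibroblasts (7 genes, 216 to 272 and 103 to 235 CPM), of B cells (4 genes, 3.52 to 4.71 and 3.60 to 5.22 CPM) and of cholangiocytes (4 genes, 14.4 to 18.9 and 10.8 to 20.2 CPM, with Krt7 at 0 in at least 1 library) overlapped. By the sign of the log2 fold change, 0 of 6 tested T and NK markers, 1 of 5 endothelial and 0 of 7 macrophage markers were higher after AKOC. The same held for 5 of 7 stellate and fibroblast, 2 of 4 B cell and 1 of 3 tested cholangiocyte markers. In whole liver, fewer cells of a type and less RNA per cell cannot be told apart, and the part of these cell types in the p53 target values was not tested. Of 17 clock genes, 3 were higher and 11 lower at an unadjusted p under 0.05 in edgeR, against 6.78% and 5.69% of all genes, with 0 past the adjusted threshold, and their part was not tested either. By p these were led by Bmal1 (1.96 ± 0.26), Dbp (-2.20 ± 0.37), Npas2 (4.34 ± 0.87), Tef (-0.83 ± 0.17), Per3 (-2.30 ± 0.53) and Bhlhe41 (-1.70 ± 0.43), with edgeR adjusted p from 0.216 to 0.295. DESeq2 called Bmal1 (adjusted p = 1.1e-08), Dbp (5.5e-07), Per3 (4.46e-04), Npas2 (0.00156) and Tef (0.00568). Without AKOC replicate 1, edgeR called Bmal1 (adjusted p = 0.0388), Dbp (0.0219) and Per3 (0.0388).

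Levels of different genes can be compared only per length, so the order is given in FPKM over all 6 libraries (mean ± SD). Trp53inp1 was highest at 15.1 ± 3.90 FPKM, followed by Ccng1 at 12.3 ± 3.89, Gadd45a at 12.2 ± 6.97, Btg2 at 10.6 ± 7.07 and Bax at 9.26 ± 1.47 FPKM. Sesn1 at 8.12 ± 1.68, Phlda3 at 7.22 ± 4.38, Cdkn1a at 5.01 ± 5.55, Mdm2 at 4.66 ± 1.28 and Gadd45b at 2.60 ± 1.68 FPKM followed. Each gap between neighbours in this order was smaller than the larger SD of the pair, except that from Mdm2 to Gadd45b, where Mdm2 was the higher in 5 of 6 libraries. Cdkn1a ranged 27.2-fold between its lowest and highest library in CPM, the widest range of the 10, and Bax 1.38-fold, the narrowest.

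The genes whose library pattern lay nearest to that of Cdkn1a were sought among those with a mean of at least 5 CPM, by the root mean square difference of centred log2 CPM over the 6 libraries. Nearest was Socs2, a feedback inhibitor of growth hormone signalling, with a distance of 0.61 and levels of 7.23, 3.46 and 10.97 CPM in the Quik-clot libraries and 27.4, 13.3 and 16.6 CPM in the AKOC libraries. It shared with Cdkn1a the lowest value in Quik-clot replicate 2 and the highest in AKOC replicate 1, a likeness that a choice by this distance favours. Igfn1 followed at 0.67, then the apolipoprotein gene Apoa4 at 0.86, Pik3c3, a lipid kinase of autophagy, at 0.88, the uncharacterised LOC120101644 at 0.98 and the haemoglobin gene Hbb-b1 at 0.99, whose reads may be shared with near-identical copies. Of the other members, Phlda3 was nearest, with a distance of 1.11 and rank 17 of 9072 genes. Sesn1 (1.35), Trp53inp1 (1.37), Ccng1 (1.39) and Bax (1.39) ranked 262, 350, 485 and 537. Mdm2 (1.59), Btg2 (1.66) and Gadd45a (1.80) ranked 6193, 7771 and 8709, and Gadd45b, at 2.03, was below the level limit. The distance also reflects how far a gene ranges, so genes of narrow range such as Bax cannot come close to Cdkn1a. A high rank likewise need not mean a like pattern. In AKOC replicate 1, where Cdkn1a was at 2.25 in centred log2 CPM, Sesn1 was at -0.09. Trp53inp1, Ccng1 and Bax were at 0.42, 0.62 and 0.26 there.

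The test between the dressings was applied to p53 targets outside the 10, from a list written from textbook knowledge. Earlier results of these data were known when the list was written, so it is not an independent check. The edgeR quasi-likelihood test with Benjamini-Hochberg adjustment called 0% of all 13872 genes at an adjusted p under 0.05, and 0 of the 35 tested members of that list of 37. Unadjusted, 1731 genes had a p under 0.05, and DESeq2 called 280 genes. At an unadjusted p under 0.05 (edgeR), 5 of the 35 were higher after AKOC, against 6.78% of all genes, and 2 were lower, against 5.69%. The libraries did not overlap in CPM for 6 higher and 2 lower members, against 9.53% and 8.84% of all genes. The median log2 fold change of the list was 0.11, against -0.01 over all genes, with 22 members positive and 13 negative. Over all genes tested, 6662 were positive and 7210 negative.

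Reprimo, Rprm, a mediator of arrest before mitosis, had the smallest p of the list. It measured 1.31, 2.20 and 1.27 CPM in the Quik-clot libraries and 5.19, 5.85 and 5.19 CPM in the AKOC libraries, with no overlap on the CPM or the FPKM scale. Its log2 fold change was 1.76 ± 0.26, with an edgeR adjusted p of 0.224 and a DESeq2 adjusted p of 1.05e-06. Perp, a membrane protein of desmosomes and of p53-dependent death, measured 35.1, 30.4 and 35.5 CPM in the Quik-clot libraries and 49.0, 70.1 and 54.2 CPM in the AKOC libraries, again without overlap. Its log2 fold change was 0.78 ± 0.15, with an edgeR adjusted p of 0.274 and a DESeq2 adjusted p of 0.00777. DESeq2 called these 2 genes of the list and no other.

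Rps27l (log2 fold change 0.70 ± 0.20), the DNA damage sensor Xpc (0.81 ± 0.24) and Tp53i11 (0.48 ± 0.15) were also higher in every AKOC library in CPM, though they overlapped in FPKM, with edgeR adjusted p of 0.312, 0.315 and 0.326. The repair nuclease gene Ercc5 was lower in every AKOC library on both scales (-0.33 ± 0.12, edgeR adjusted p = 0.364). The other lower gene, Tp53i13 (-0.49 ± 0.20, edgeR adjusted p = 0.390), overlapped in CPM and is named because it completes the count.

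AKOC replicate 1 held the highest value of 10 of these 35 targets (28.6%), against the 14.0% of all genes given above. Only 1 of them, Eda2r, was at least 1.5-fold above the next library there, which 1.36% of all genes were. Chosen after their values were seen, 3 of the 10 are described here. Eda2r, a death receptor of the TNF family, measured 3.55 CPM in AKOC replicate 1 and between 0.109 and 0.432 CPM in the other 5 libraries. The nuclease gene Aen measured 13.2 CPM there and between 6.60 and 10.04 CPM in the others. Gdf15, a stress-induced hormone, was at 2.13 and 2.09 CPM in AKOC replicates 1 and 3 and between 0.507 and 0.838 CPM in the other 4 libraries, the same libraries in which Cdkn1a and Phlda3 were highest. Their edgeR adjusted p between the dressings were 0.404, 0.421 and 0.430.

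**Figure D4:**
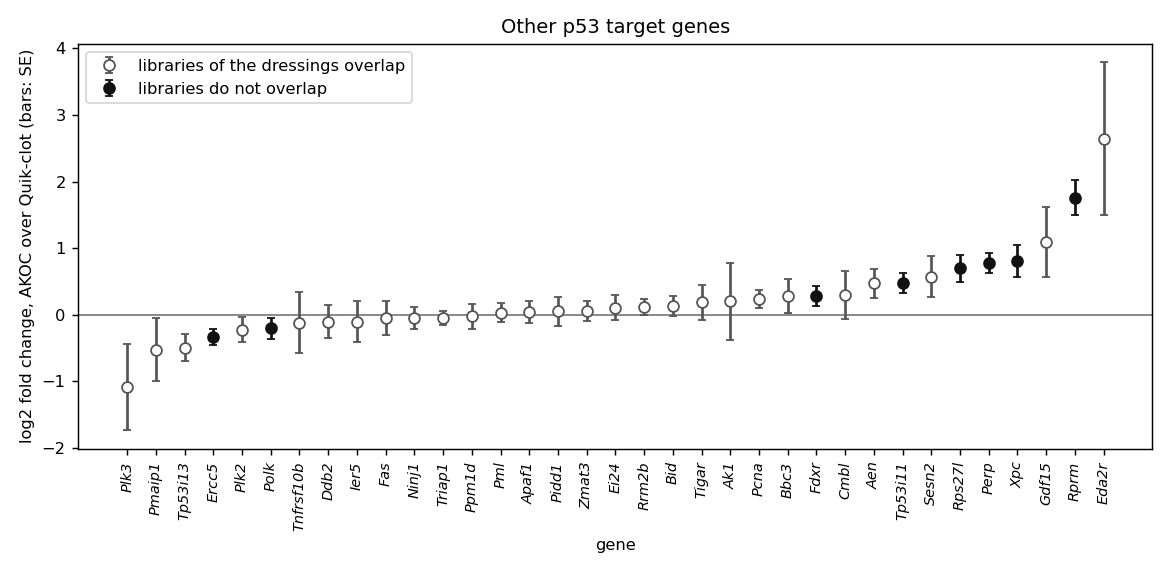
Log2 fold change, AKOC over Quik-clot, of 35 other p53 targets (vertical axis) with bars for the standard error of the edgeR fit. Filled points are genes whose libraries did not overlap between the dressings in CPM, among them Rprm at 1.76, and the open point of Eda2r at 2.64 has the widest bar.

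In a list of 22 genes upstream in the pathway, 19 were tested, of which 0 passed the adjusted threshold in edgeR. At an unadjusted p under 0.05 (edgeR), 1 was higher and 1 lower, against 6.78% and 5.69% of all genes. The median log2 fold change was -0.12, against -0.01 over all genes. The checkpoint kinase gene Chek2 was the higher one (0.79 ± 0.27, edgeR adjusted p = 0.354), at 1.001, 1.38 and 0.892 CPM in the Quik-clot libraries and 1.62, 2.16 and 1.90 CPM in the AKOC libraries. The lower one was the acetyltransferase gene Crebbp (-0.35 ± 0.15, edgeR adjusted p = 0.391), which overlapped in CPM and is named to complete the count. The damage kinase gene Atm (-0.08 ± 0.20) and the MDM2 partner gene Mdm4 (-0.19 ± 0.15) overlapped between the dressings, with edgeR adjusted p of 0.892 and 0.612.

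Of 14 tested paralogs of the members, 0 passed the adjusted threshold in edgeR, and 1 was higher and 1 lower at an unadjusted p under 0.05, against 6.78% and 5.69% of all genes. Cdkn1b, the p27 counterpart of Cdkn1a, measured 27.9, 23.0 and 25.9 CPM in the Quik-clot libraries and 23.9, 22.6 and 25.2 CPM in the AKOC libraries (log2 fold change -0.10 ± 0.11), and Cdkn1c had -0.09 ± 0.56. Ccng2, a cyclin G that FOXO factors induce, measured 12.0, 14.5 and 12.0 CPM in the Quik-clot libraries and 17.1, 25.5 and 34.8 CPM in the AKOC libraries (1.005 ± 0.25, edgeR adjusted p = 0.295, DESeq2 adjusted p = 0.0208). AKOC replicate 1 was the lowest AKOC library for Ccng2 and the highest for its paralog Ccng1. Phlda1 lay on the other side from Phlda3, at 3.09, 1.47 and 7.81 CPM in the Quik-clot libraries and 1.44, 0.934 and 1.20 CPM in the AKOC libraries (-1.78 ± 0.58, edgeR adjusted p = 0.331).

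Gadd45g (0.11 ± 0.55) overlapped between the dressings, as did Btg1 (-0.41 ± 0.30), which was highest in Quik-clot replicate 3 like Btg2. Sesn2 (0.57 ± 0.31), Sesn3 (0.18 ± 0.16), Phlda2 (0.42 ± 0.80), Bak1 (-0.73 ± 0.36), Bok (-0.36 ± 0.46) and Trp53inp2 (0.20 ± 0.26, under the symbol Tp53inp2) also overlapped. Btg3 (0.27 ± 0.22) did not overlap in CPM but did in FPKM.

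Partners of p21 and of Bax were read from 2 further lists, and no member of either passed the adjusted threshold in edgeR. Of 21 tested cyclin, kinase and inhibitor genes, 3 were higher and 1 lower at an unadjusted p under 0.05, against 6.78% and 5.69% of all genes. The median log2 fold change of the 21 was 0.31, against -0.01 over all genes. The kinase gene Cdk6 (0.59 ± 0.14), the inhibitor gene Cdkn2b (1.28 ± 0.39) and the retinoblastoma gene Rb1 (0.46 ± 0.17) were higher, and Cdk2, the main kinase bound by p21, was lower (-0.52 ± 0.17), with edgeR adjusted p of 0.281, 0.318, 0.370 and 0.326. Rb1 overlapped in FPKM, and Cdkn2b rested on 15 to 55 counts per library. Of 13 tested BCL2 family genes, 0 were higher and 1 lower at an unadjusted p under 0.05, against 6.78% and 5.69% of all genes. The lower one, death-promoting Bcl2l11, measured 10.4, 8.73 and 10.4 CPM in the Quik-clot libraries and 5.95, 6.70 and 6.78 CPM in the AKOC libraries. Its log2 fold change was -0.60 ± 0.14, with an edgeR adjusted p of 0.281 and a DESeq2 adjusted p of 0.0495.

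Among the groups that stood high in Quik-clot replicate 3, the genes lower in every AKOC library at an unadjusted p under 0.05 were led by the immediate early genes Ier3 (-0.81 ± 0.18) and Zfp36 (-0.75 ± 0.22), the glucocorticoid target Fkbp5 (-1.18 ± 0.39) and the FOXO target Txnip (-0.37 ± 0.14). Their edgeR adjusted p were 0.281, 0.312, 0.340 and 0.364, and DESeq2 called Ier3 (adjusted p = 0.0196). All 4 were highest in Quik-clot replicate 3, as was Gadd45b. They were named only if the dressings did not overlap, so nothing is read from their separation in the other libraries. The remaining lower genes of these lists, Zbtb16 (-1.96 ± 0.52), Per1 (-0.66 ± 0.24) and Hamp (-2.32 ± 0.98), overlapped in CPM.

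**Figure D5:**
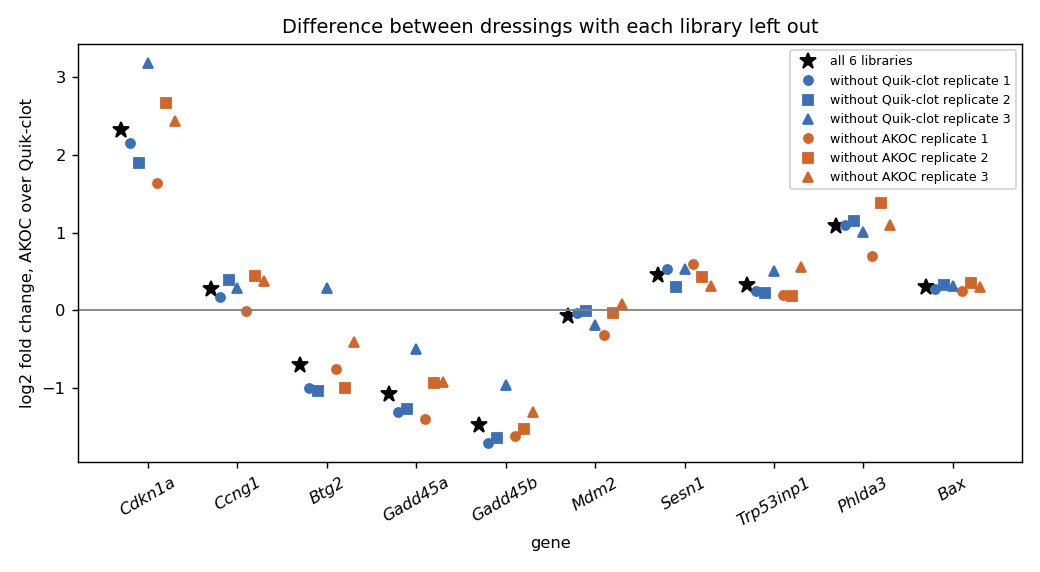
Log2 fold change, AKOC over Quik-clot (vertical axis), of each p53 target gene with all 6 libraries (star) and with each library left out in turn (points, coloured by the dressing of the library left out). Cdkn1a stays above 0 from 1.63 to 3.18, Gadd45b stays below 0 from -1.71 to -0.96, and Btg2 crosses 0 to reach 0.29 without Quik-clot replicate 3.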

How the data were processed

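The authors deposited 1 table of raw read counts and 1 of FPKM, each with 20104 genes. With 1 length per gene, inferred from the ratio of the tables, count over length and library total gave every FPKM above 0 to within a relative error of 6.2e-07. The submitters' processing notes name fastp, HISAT2, HTSeq and mRatBN7.2. Neither versions nor annotation nor strand setting is given in the sources used here, so overlapping antisense genes may share reads.

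The filterByExpr function (minimum count 10, minimum total 15) kept 13872 genes. Differences were tested with edgeR 4.0.16 by quasi-likelihood (glmQLFTest, R 4.3.3; TMM scaling, two-sided, Benjamini-Hochberg over all genes, threshold 0.05, not the legacy method). Log2 CPM used a prior count of 2. Samples were grouped by their titles. An exact permutation test of 3 against 3 cannot go below p = 0.1. Alternatives were DESeq2 1.42.0, other scalings and filters, limma-trend (limma 3.58.1) on log2(FPKM + 1) and log2(FPKM + 0.1), the replicate block, and each library left out. The legacy method was chosen after seeing the data. Fits were first checked on simulated data.

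The members and lists were chosen with earlier results of these data known. Besides all members, Mdm4, Atm and the paralogs, up to 6 genes per list were to be named, with an unadjusted p under 0.05 and no overlap in CPM, in order of p. Likeness to Cdkn1a was to name 6 genes. Exceptions are stated where they occur. A further gene that the rule names is not reported here. Of the fixed symbols, Spata18 matched no row.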

Additional observations from a re-analysis of the deposited data

How the results depend on the processing

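Of the 10 members, 7 kept the sign of their log2 fold change under all 15 alternatives, with Cdkn1a from 1.63 to 3.18 and Gadd45b from -1.71 to -0.96. The exceptions were Ccng1 (-0.01 without AKOC replicate 1), Btg2 (0.29 without Quik-clot replicate 3) and Mdm2 (0.08 without AKOC replicate 3). On log2(FPKM + 1), which understates changes of low genes, Cdkn1a was 1.71. Bax was 0.21 with limma-trend on log2(FPKM + 1), a shift beyond its spread. DESeq2 called 280 genes (186 higher and 94 lower), with 2 other p53 targets among them, and the cause of the difference from edgeR was not tested. Leaving out a library gave from 0 to 18 calls (0 to 12 higher and 0 to 6 lower). These were 18 without Quik-clot replicate 2, 10 without AKOC replicate 1 and 2 without AKOC replicate 2. For the other p53 targets, leaving out a library gave 0 to 1 called (Rprm, without Quik-clot replicate 2), 5 to 8 higher and 0 to 2 lower at an unadjusted p under 0.05, and a median of 0.0080 (without AKOC replicate 1) to 0.16 (without AKOC replicate 2). The number of lower targets was 0 without Quik-clot replicate 1, Quik-clot replicate 3 or AKOC replicate 3.

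The median of the other p53 targets was 0.034 with library totals only, 0.036 on log2(FPKM + 0.1) and 0.017 on log2(FPKM + 1). With library totals only, and on log2(FPKM + 1), 1 of them was lower at an unadjusted p under 0.05. Over all genes, 1126 had an unadjusted p under 0.05 on log2(FPKM + 1) and 1149 on log2(FPKM + 0.1), and 1080 to 2460 with a library left out (1080 without AKOC replicate 3). With the replicate number as a block, 1 gene was called, higher, and 1 other p53 target was lower at an unadjusted p under 0.05. Same-numbered libraries correlated at -0.072, -0.082 and -0.20 in their deviations from the group means. These values gave no sign that the numbers pair the libraries, but deviations within groups of 3 cannot exclude it. With 3 libraries per dressing the number of libraries limits precision, and counting error was not separated from the spread between libraries.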
